A study of Mus musculus with 10 samples.

Results

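The core circadian clock was described in the mouse hippocampus through 10 transcripts: Arntl (also called Bmal1), Clock, Per1, Per2, Per3, Cry1, Cry2, Nr1d1, Nr1d2 and Dbp. They were chosen by name, and all 10 were among the 27343 genes of the deposited table and among the 15938 genes that passed the filter on low counts. Visudyne mice, 5 libraries, were wild-type C57BL/6J males of 2 months that received verteporfin, a photosensitizer, into the cisterna magna, and then red light (689 nm) over the skull, to ablate meningeal lymphatic vessels. Vehicle mice, 5 libraries, were of the same strain, sex, age and genotype and received the carrier and the light. Both groups had the procedure again 2 weeks later, then the Morris water maze after a further 2 weeks, and the whole hippocampus was taken 3 days after the maze. The time of day of dissection is not given in the sources used here, so no level below is tied to a phase of the day.

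The mammalian clock is a loop of transcription. ARNTL and CLOCK pair and switch on the Per and Cry genes through E-box sequences, and PER and CRY proteins return to the nucleus and inhibit the pair. The same pair switches on Nr1d1 and Nr1d2, whose REV-ERB proteins repress Arntl, and Dbp, a PAR bZIP factor that carries the rhythm to output genes through D-boxes. In most mouse tissues Arntl therefore peaks when Nr1d1, Dbp and the Per genes are low. In the hippocampus the clock is known for daily changes in memory and in plasticity.

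The share of clock genes called was close to that of all genes. Of the 10 members, 2 were lower in Visudyne, Cry2 and Nr1d1, 0 were higher and 8 did not pass the test (edgeR quasi-likelihood test, Benjamini-Hochberg adjusted p under 0.05 over all tested genes). Over all tested genes 20.5% were called, made up of 11.5% of all that were lower and 8.98% that were higher in Visudyne. The median log2 fold change of the members was -0.24, against 0.010 over all tested genes, and 8 of 10 members had a value below 0. In 0 of the 10 did the CPM ranges of the groups stay apart, which they did in 12.5% of all tested genes (7.22% lower and 5.25% higher in Visudyne). CPM is the count per TMM-scaled library size.

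The promoters of 4 members are shown, because Cry2 and Nr1d1 were the members called, Per1 had the largest fold, and Cry1 carries the same letters as Cry2 and Nr1d1 with a log2 fold change near 0. Each line gives the 250 bases before the RefSeq start (GRCm38.p6), 5′ to 3′ on the gene's strand. Capitals mark the E-box CACGTG, its variant AACGTG (or CACGTT on the other strand), and the ROR half-site AGGTCA (or TGACCT). ROR half-site here means these letters alone, searched without flanking bases, so a match is not a whole ROR site.
Cry2 (chr2:92434070-92434319, minus strand): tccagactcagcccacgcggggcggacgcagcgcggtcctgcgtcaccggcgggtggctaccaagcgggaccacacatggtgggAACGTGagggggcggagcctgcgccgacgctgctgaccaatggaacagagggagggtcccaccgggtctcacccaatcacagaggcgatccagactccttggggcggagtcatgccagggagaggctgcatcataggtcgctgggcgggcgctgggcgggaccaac
Nr1d1 (chr11:98775378-98775627, minus strand): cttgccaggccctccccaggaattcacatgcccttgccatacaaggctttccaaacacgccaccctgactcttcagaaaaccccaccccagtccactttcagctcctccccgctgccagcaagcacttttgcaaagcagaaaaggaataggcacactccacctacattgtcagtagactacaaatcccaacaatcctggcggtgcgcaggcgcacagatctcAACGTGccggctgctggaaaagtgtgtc
Per1 (chr11:69098699-69098948, plus strand): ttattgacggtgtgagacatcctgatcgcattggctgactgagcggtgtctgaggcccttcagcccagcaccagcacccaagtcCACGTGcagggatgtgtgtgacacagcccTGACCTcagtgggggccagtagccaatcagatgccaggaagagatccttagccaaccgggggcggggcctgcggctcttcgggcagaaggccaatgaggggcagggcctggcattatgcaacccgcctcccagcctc
Cry1 (chr10:85185055-85185304, minus strand): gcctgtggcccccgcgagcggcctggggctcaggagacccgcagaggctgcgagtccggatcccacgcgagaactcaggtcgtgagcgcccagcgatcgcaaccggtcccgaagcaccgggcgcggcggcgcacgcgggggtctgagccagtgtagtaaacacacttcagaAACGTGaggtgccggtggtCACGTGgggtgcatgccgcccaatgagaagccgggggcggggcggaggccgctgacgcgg
The variant E-box began 166 bases before the start in Cry2, 28 bases before it in Nr1d1 and 79 bases before it in Cry1, and 3.85% of all 32851 RefSeq promoter windows of this length held it. The E-box CACGTG began 166 bases before the first start of Per1 and 60 bases before that of Cry1, and 6.02% of all windows held it. The ROR half-site, found in 14% of all windows, began 137 bases before the Per1 start and was also present in a window of Nr1d2 and in 1 of 3 windows of Clock. Per3 held the D-box TTATGTAA at 205 and 158 bases before its start, a motif (searched with TTACATAA and TTACGTAA) found in 0.931% of all windows. In all, 9 of the 10 members had a window, and Per2 had none. The RefSeq starts of Nr1d1 and Cry2 lie upstream of their GENCODE starts. These are matches of letters in a short window, and say nothing of binding.

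Levels per exon length place Nr1d2 far above the other members in both groups. It stood at 25.8 ± 2.68 CPM per kb of exon in Visudyne and 24.4 ± 1.51 in vehicle (SD, n = 5 each). Cry2 followed at 3.19 ± 0.469 in Visudyne and 4.13 ± 0.518 in vehicle, on the same scale. Arntl, Clock and Cry1 averaged 2.76, 2.44 and 2.69 CPM per kb in Visudyne and 3.35, 2.75 and 2.66 in vehicle. Within either group, neighbours in the order from Cry2 to Clock and Cry1 overlapped library by library, so no neighbouring pair among these 4 was separated. Per2, Per3 and Nr1d1 formed a lower run, with 1.67, 1.37 and 1.01 CPM per kb in Visudyne and 1.91, 1.58 and 1.58 in vehicle. Per1 and Dbp were the least abundant, at 0.400 and 0.326 CPM per kb in Visudyne and 0.685 and 0.521 in vehicle, and their ranges overlapped each other. Dbp rested on 23 to 87 estimated counts per library and Per1 on 29 to 203, so both carry more relative counting error than Nr1d2, with 3409 to 6254.

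**Figure D1:**
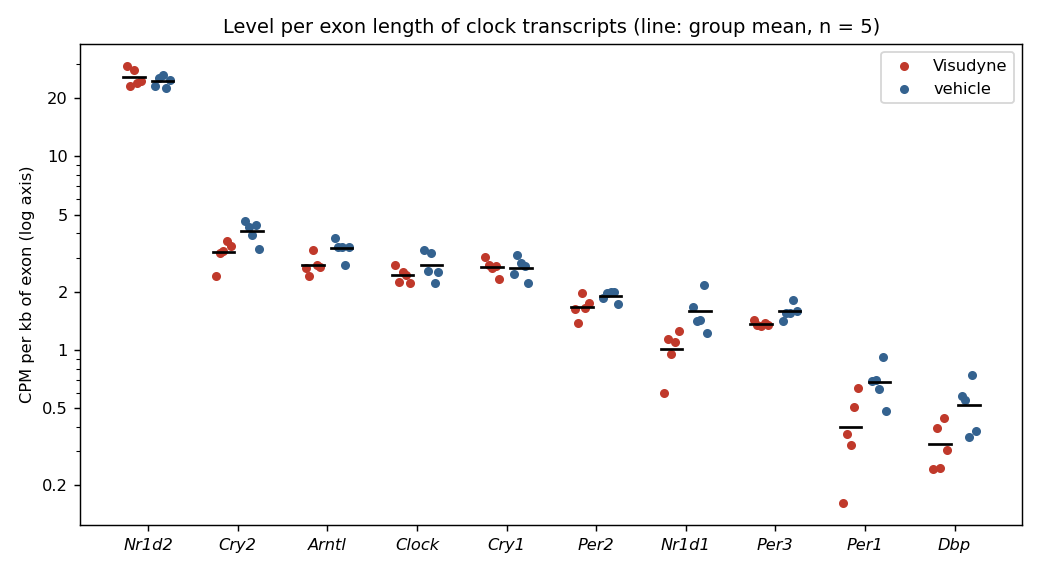
Level of each clock transcript in CPM per kb of exon on a log axis, with 1 point per library, 5 Visudyne (left of each pair) and 5 vehicle, and a line at the group mean. Nr1d2 lies at 22.5 CPM per kb or more in every library, while Per1 and Dbp reach at most 0.917.

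Arntl and Clock encode the activating pair. Arntl (ENSMUSG00000055116, GRCm38 chromosome 7, 113207465 to 113314126) had 20, 18.1, 24.7, 20.7 and 20.2 CPM in Visudyne 1 to 5, against 28.4, 25.6, 25.5, 20.7 and 25.6 CPM in vehicle 6 to 10. All 5 Visudyne libraries lay below 4 of the 5 vehicle libraries, and vehicle 9 was inside the Visudyne range. The log2 fold change was -0.28 (SE 0.096) and was not called (adjusted p = 0.0556 by edgeR). Clock (ENSMUSG00000029238, chromosome 5, 76209868 to 76304792) had 37.9, 30.8, 34.8, 33.3 and 30.5 CPM in Visudyne, against 45.1, 34.9, 43.7, 30.5 and 34.8 CPM in vehicle. The ranges overlapped, with vehicle 6 and 8 above all other libraries. Its log2 fold change was -0.18 (SE 0.11, adjusted p = 0.233 by edgeR).

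The Per genes encode the PERIOD repressors. Per1 (ENSMUSG00000020893, chromosome 11, 69095217 to 69109960), which light, glucocorticoids and neuronal activity can also induce, had 0.911, 2.07, 1.82, 2.87 and 3.60 CPM in Visudyne, against 3.91, 3.93, 3.56, 5.16 and 2.72 CPM in vehicle. Visudyne 1 was the lowest library and vehicle 9 the highest, and Visudyne 4 and 5 were above vehicle 10. The log2 fold change was -0.77 (SE 0.29), the largest of the 10 members, and was not called (adjusted p = 0.0715 by edgeR). Without Visudyne 5 it was called, at -1.02 (adjusted p = 0.0205 by edgeR). Per2 (chromosome 1) ranged from 8.08 to 11.5 CPM in Visudyne and from 10.1 to 11.7 CPM in vehicle, a log2 fold of -0.19 (SE 0.093, adjusted p = 0.146 by edgeR). Per3 (chromosome 4) ranged from 12.8 to 13.7 CPM in Visudyne and from 13.5 to 17.4 CPM in vehicle, with a log2 fold of -0.21 (SE 0.073, adjusted p = 0.0571 by edgeR). Neither was called.

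The Cry genes encode the CRYPTOCHROME partners of PER. Cry2 (ENSMUSG00000068742, chromosome 2, 92403646 to 92434043) had 15.3, 20.1, 20.5, 23.1 and 21.7 CPM in Visudyne, against 29.4, 27.3, 24.7, 28.0 and 21.1 CPM in vehicle. All 5 Visudyne libraries were below the vehicle mean, and vehicle 10 fell within the Visudyne range. Cry2 fell, with a log2 fold of -0.37 (SE 0.11, adjusted p = 0.0401 by edgeR), or 0.771 of its vehicle level. Cry1 (chromosome 10) was at 8.97 ± 0.826 CPM in Visudyne mice and 8.89 ± 1.12 CPM in vehicle mice (SD, n = 5 each). The 2 means were nearly level, at a log2 fold of 0.0095 with an SE of 0.10 (adjusted p = 0.955 by edgeR).

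Nr1d1 and Nr1d2 encode the repressors REV-ERB alpha and beta. Nr1d1 (ENSMUSG00000020889, chromosome 11, 98767932 to 98775333) had 1.85, 3.50, 2.94, 3.37 and 3.86 CPM in Visudyne, against 5.10, 4.33, 4.42, 6.69 and 3.78 CPM in vehicle. Only vehicle 10 was within the Visudyne range, just under Visudyne 5. Nr1d1 fell, with a log2 fold of -0.65 (SE 0.20, adjusted p = 0.0414 by edgeR), or 0.638 of its vehicle level. Nr1d2 (chromosome 14) was at 139.5 ± 14.5 CPM in Visudyne mice and 132.1 ± 8.19 CPM in vehicle mice (SD, n = 5 each). Its log2 fold of 0.079, with an SE of 0.076, was not called (adjusted p = 0.454 by edgeR). Dbp (ENSMUSG00000059824, chromosome 7, 45705088 to 45710203) had 0.722, 1.18, 0.734, 1.33 and 0.913 CPM in Visudyne, against 1.72, 1.65, 1.06, 2.21 and 1.14 CPM in vehicle. All 5 Visudyne libraries were below the vehicle mean of 1.56 CPM, and vehicle 8 and 10 overlapped them. Its log2 fold change of -0.68 (SE 0.25) was not called (adjusted p = 0.0664 by edgeR), and was called without vehicle 10, at -0.77 (adjusted p = 0.0492 by edgeR).

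**Figure D2:**
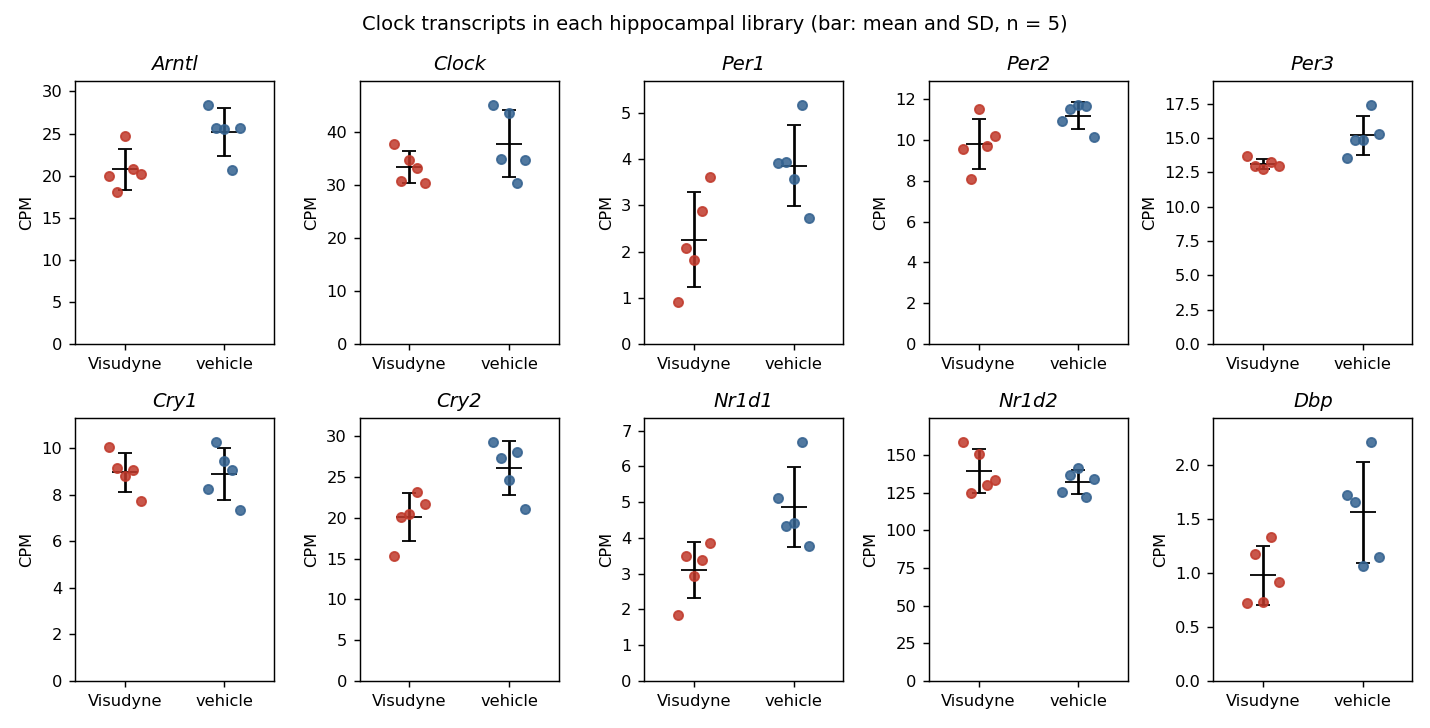
CPM of the 10 clock transcripts, with 1 point per library, 5 Visudyne (left) and 5 vehicle (right) in each panel, and bars for group mean and SD, on axes that start at 0. The groups overlap in all 10 panels, and vehicle 10 at 21.1 CPM is the vehicle library inside the Visudyne range of Cry2.

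The calls of Cry2 and Nr1d1 were lost in most fits with 1 library fewer. With 1 library left out at a time, each was called in 2 of 10 fits, those without Visudyne 5 and without vehicle 10. Their adjusted p ranged from 0.0249 to 0.0985 for Cry2 and from 0.0224 to 0.0972 for Nr1d1 over those fits by edgeR. The number of members called was 0 in the fits without Visudyne 1, 2, 3 or 4 or vehicle 6, 7, 8 or 9, and 3 in each of the other two. In the same fits the calls over all genes ranged from 10 (without vehicle 6) to 5047 (without Visudyne 5).

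The annotation puts a gene on the opposite strand over part of the exons of Nr1d1, Dbp, Cry2 and Arntl, and the sources used here do not state whether counting used the strand. Thra, a thyroid hormone receptor gene, covers 8.55% of the exon bases of Nr1d1 and also fell, to 84.8 CPM in Visudyne mice, against 116.2 CPM in vehicle mice (log2 fold change -0.45, adjusted p = 0.0427 by edgeR). Sphk2, a sphingosine kinase gene, covers 18.01% of those of Dbp and fell to 1.70 CPM in Visudyne mice, against 2.87 CPM in vehicle mice (log2 fold change -0.76, adjusted p = 0.0343 by edgeR). Neither was called with the GC trend removed, Thra at -0.035 (adjusted p = 0.744 by edgeR) and Sphk2 at -0.27 (adjusted p = 0.267 by edgeR). An antisense transcript covers 4.67% of the exon bases of Cry2 and another 0.44% of those of Arntl, and neither was among the tested genes. Nr1d1 itself was at 3.10 CPM in Visudyne mice and 4.87 CPM in vehicle mice, far below Thra. If counting ignored the strand, the shares of exon bases do not bound the reads that came from the other gene. How far the values of these 4 members are affected was not tested.

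The members' folds followed their GC content. Over the 10 members, GC content of the transcripts and log2 fold change had a Pearson r of -0.78 (Spearman rho -0.83), a description across genes that share the same 10 libraries. Over all tested genes the r was -0.60. Per1 (58.9% GC), Dbp (57.2%), Nr1d1 (56.6%) and Cry2 (54.3%) had the 4 lowest log2 fold changes. All tested genes were split into 10 equal bins by GC content. In the richest bin the median log2 fold change was -0.48 and 27.9% of genes were called lower in Visudyne, and in the poorest bin it was 0.31 and 0.253% were. Each library has its own slope of log2 CPM on GC content. Per 10 percentage points it was -0.536, -0.119, -0.222, -0.135 and 0.008 in Visudyne 1 to 5, against 0.302, 0.160, 0.156, 0.405 and -0.020 in vehicle 6 to 10. Visudyne 1, the lowest library for Per1, Nr1d1 and Cry2, had the lowest slope, and vehicle 9, the highest library for Per1, Nr1d1 and Dbp, had the highest. Arntl (48.3% GC), Clock (41.5%), Nr1d1 and Per1 lay below the middle 50% of the genes in their bin, and the other 6 members lay within it.

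**Figure D3:**
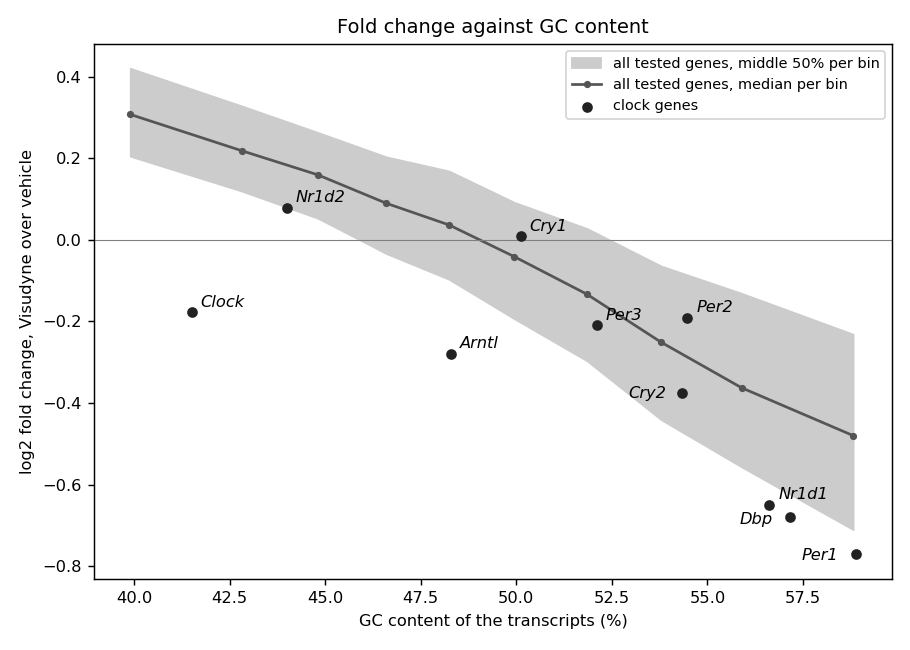
Log2 fold change (Visudyne over vehicle) against the GC content of the transcripts in percent, with the clock genes as named points and all tested genes as the median (line) and middle 50% (band) of each of 10 bins by GC content. Per1, Dbp and Nr1d1 lie at the GC-rich end with the lowest folds, and Clock and Arntl lie farthest below the band.

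With each library's trend on GC content removed, a different member was called. Clock fell, with a log2 fold of -0.44 (SE 0.11, adjusted p = 0.0490 by edgeR), and the other 9 did not pass the test, where 3.14% of all tested genes were called and 1.69% as lower. Arntl was at -0.30 (SE 0.098, adjusted p = 0.0902 by edgeR), close to its value of -0.28 without the removal. Nr1d1 went to -0.27 and Cry2 to -0.10, neither called any more (adjusted p = 0.152 and 0.443 by edgeR), Per1 was at -0.34 and Dbp at -0.26. Per2 changed sign, to 0.097, and so did Nr1d2, to -0.11. The call of Clock held in 2 of 10 fits with 1 library left out, those without Visudyne 5 and without vehicle 10, over which its log2 fold change ranged from -0.50 to -0.35 (adjusted p = 0.0370 to 0.120 by edgeR).

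When each library's GC slope was a covariate in the model, 0 of the 10 members and 0% of all tested genes were called by edgeR. At an unadjusted p under 0.05 there was 1 member, and 6.48% of all genes. Without that covariate 6 members had an unadjusted p under 0.05, against 39.8% of all genes. DESeq2 called 6 members and 27.7% of all genes, and limma-voom 2 members and 21.5% of all genes. The log2 fold changes of Nr1d1, Cry2 and Per1 were 0.13, 0.026 and 0.30 with the covariate, on the other side of 0, and that of Dbp was -0.00094. Arntl stayed at -0.36 (SE 0.15) and Clock at -0.35 (SE 0.16). Per3 and Per2 also stayed below 0, at -0.20 (SE 0.11) and -0.14 (SE 0.14). Cry1 and Nr1d2 turned to below 0, at -0.088 and -0.13. The slopes of the groups overlap through Visudyne 5 and vehicle 10 alone, and the part of the slope and that of the treatment in a fold cannot be told apart.

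**Figure D4:**
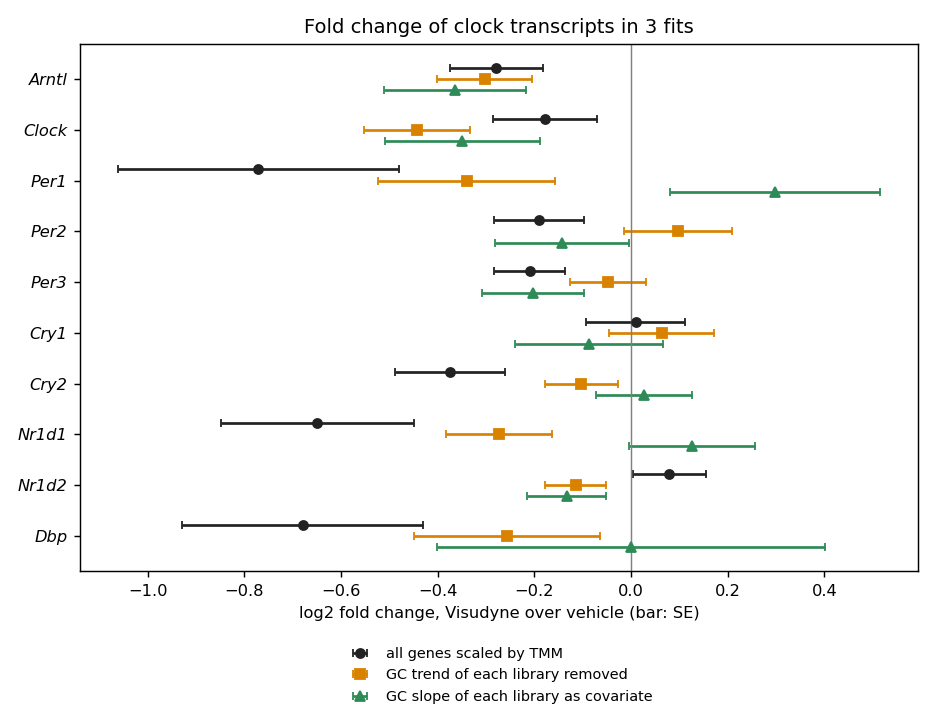
Log2 fold change (Visudyne over vehicle) with its SE for the 10 clock transcripts in 3 fits, namely TMM scaling alone (circles), each library's GC trend removed (squares) and each library's slope as covariate (triangles). Arntl, Clock, Per3 and Dbp stay below 0 in all 3, with Dbp at -0.00094 in the fit with the covariate. In that fit Per1, Cry2 and Nr1d1 cross to above 0, and Cry1 and Nr1d2 lie below 0.

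Arntl had a log2 fold change below 0 with TMM scaling alone. So did Nr1d1, Dbp, Per1, Per2 and Per3, which are known to peak opposite to it. Of these 6 only Nr1d1 was called. Nr1d2, which the same pair also switches on, went the other way, at 0.079, and was not called. The log2 ratio of 2 transcripts in 1 library, taken on CPM without a prior count, does not depend on the scaling of libraries. Ratios with the GC trend removed were taken on log2 CPM with a prior count of 2, so their scale differs. The plain log2 ratio of Dbp to Arntl was -4.45 ± 0.501 in Visudyne and -4.06 ± 0.541 in vehicle (SD, n = 5 each), a difference of -0.39. That of Nr1d1 to Arntl was -2.78 ± 0.464 in Visudyne and -2.39 ± 0.441 in vehicle, a difference of -0.38. That of Per1 to Arntl was -3.34 ± 0.781 in Visudyne and -2.73 ± 0.453 in vehicle, a difference of -0.61. The groups overlapped in all 3. With the GC trend removed these 3 differences were 0.072, 0.031 and -0.093. The ratios of Per2 and Per3 to Arntl differed the other way, by 0.083 and 0.073 (Visudyne minus vehicle), and by 0.39 and 0.25 with the GC trend removed. The ratio of Nr1d2 to Arntl was 2.75 ± 0.151 in Visudyne and 2.40 ± 0.155 in vehicle, a difference of 0.35, and its ranges, 2.61 to 2.99 in Visudyne and 2.15 to 2.56 in vehicle, did not overlap. That difference was 0.18 with the GC trend removed, and the groups then overlapped, with vehicle 9 inside the Visudyne range. Without that removal the groups overlapped in every other ratio to Arntl. How often ratios of other gene pairs stay apart was not computed, while CPM ranges did so in 12.5% of all tested genes.

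Across the 10 libraries the relation of Arntl to each of the other 9 members was computed on log2 CPM. The highest was with Clock, its partner, at Pearson r = 0.72 (permutation p = 0.0179, adjusted over the 9 relations p = 0.117) and Spearman rho = 0.61 (permutation p = 0.0670, adjusted p = 0.328). Per2 followed at r = 0.68 (permutation p = 0.0260, adjusted p = 0.117) and rho = 0.47 (permutation p = 0.178, adjusted p = 0.426), and 0 of the 9 passed after adjustment, 2 of them at an unadjusted p under 0.05 for r. Arntl against Nr1d1, Dbp and Per1 gave r of 0.31, 0.19 and 0.33 (rho 0.43, 0.35 and 0.37), with permutation p of 0.396, 0.601 and 0.358 for r and 0.219, 0.331 and 0.295 for rho. With group means removed, r was 0.64 for Clock, -0.34 for Nr1d1, -0.49 for Dbp and -0.74 for Per3 (permutation within groups, adjusted p = 0.221, 0.525, 0.385 and 0.209). Without Visudyne 2 and vehicle 6, the libraries farthest from the Arntl median, r with Clock was 0.50 (exact permutation p = 0.191, n = 8).

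On values with the GC trend removed, Arntl and Clock had r = 0.83 (permutation p = 0.00071, adjusted p = 0.00639) and rho = 0.90 (permutation p = 0.00086, adjusted p = 0.00774), the 1 relation of 9 that passed. With group means also removed r was 0.64 (permutation within groups, p = 0.0166, adjusted p = 0.149), and without Visudyne 2 and vehicle 6 it was 0.71 (exact permutation p = 0.0163, adjusted p = 0.147, n = 8). Neither of these values passed after adjustment over the 9 relations.

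**Figure D5:**
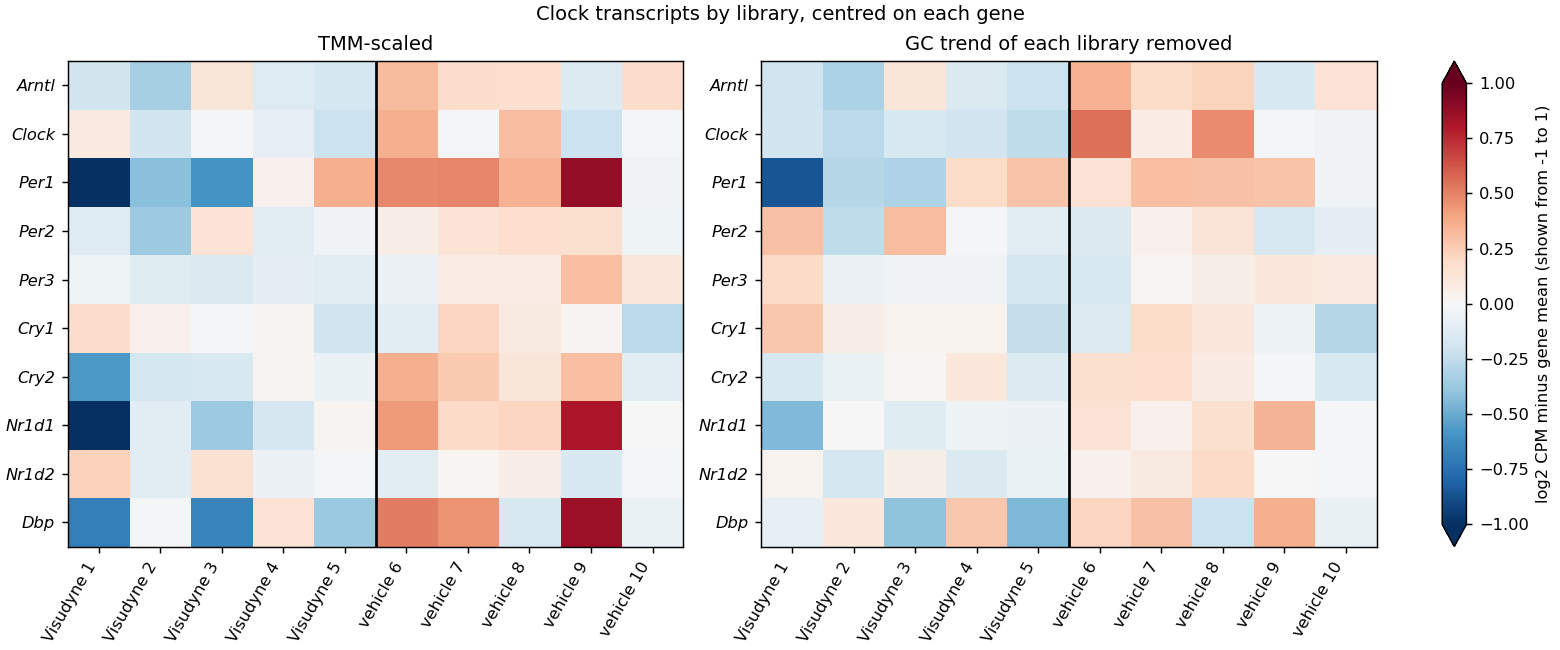
Log2 CPM of each clock transcript minus its mean over the 10 libraries, Visudyne 1 to 5 left of the line and vehicle 6 to 10 right of it, with TMM scaling (left) and with each library's GC trend removed (right), in colours that end at -1 and 1. Visudyne 1 is lowest for Per1, at -1.55, and Nr1d1, at -1.01, in the left panel, and Clock is below its mean in all 5 Visudyne libraries in the right panel.

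Single libraries lay below or above the mean for many members at once. In Visudyne 1 to 5, 7, 9, 7, 6 and 8 of the 10 members were below their own mean over all libraries, against 3, 1, 1, 3 and 8 in vehicle 6 to 10. Vehicle 10, the shallowest library at 24752362 counts, thus resembled the Visudyne libraries in this count. The count takes no account of distance from the mean. In vehicle 10, Per1, Per2, Clock, Nr1d1, Nr1d2 and Dbp lay only -0.063 to -0.005 from it in log2 CPM, and Cry1 and Cry2 lay at -0.269 and -0.108. With the GC trend removed the numbers were 6, 7, 5, 6 and 9 in Visudyne and 3, 0, 1, 6 and 8 in vehicle.

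Other genes of the loop were read from a list of 12. Of these, 3 fell and 0 rose, with a median log2 fold change of -0.077, against the 0.010 of all tested genes, of which 20.5% were called and 11.5% were lower. Bhlhe40, which encodes DEC1, a repressor at E-boxes, had 27.9, 33.3, 28.9, 32.6 and 35.2 CPM in Visudyne, against 42.4, 43.4, 49.99, 39.0 and 42.5 CPM in vehicle. The groups did not overlap. Its log2 fold change was -0.46 (SE 0.082, adjusted p = 0.0201 by edgeR), against -0.45 with the GC trend removed (adjusted p = 0.0285 by edgeR) and -0.36 with the slope covariate (adjusted p = 0.628 by edgeR). It was called in 8 of 10 fits with 1 library left out, and in 4 of 10 with the GC trend also removed. Nfil3, a repressor at D-boxes that opposes Dbp, fell to 2.69 ± 0.384 CPM in Visudyne, against 3.74 ± 0.356 CPM in vehicle. Tef, a PAR bZIP relative of Dbp, fell to 143.9 ± 11.7 CPM in Visudyne, against 171.5 ± 8.65 CPM in vehicle (SD, n = 5 each). Nfil3 was called in 2 and Tef in 5 of the 10 fits with 1 library left out, and both lost their call with the GC trend removed, at log2 fold changes of -0.20 and -0.069. Npas2, which can stand in for Clock, had a log2 fold change of 0.018, Hlf one of 0.031, Ciart one of -0.48, and Rora and Rorb, activators of Arntl, 0.25 and 0.26, none of them called. These 5 were named after their values were seen.

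Genes that modify clock proteins were called in both directions, 5 of 12, against 20.5% of all tested genes. Of the 12, Gsk3b, a kinase gene, Sirt1, a deacetylase gene, and Fbxl21, which encodes an F-box protein for CRY, rose, and Csnk1d, a kinase gene for PER, and Hdac3, the deacetylase gene of the REV-ERB complex, fell. Their median log2 fold change was 0.062. Csnk1d was at 31.5 ± 2.73 CPM in Visudyne mice, against 38.3 ± 3.09 CPM in vehicle mice, and Sirt1 at 32.5 ± 4.46 CPM with Visudyne, against 25.9 ± 2.57 CPM with vehicle (SD, n = 5 each). With the GC trend removed 0 of the 12 were called, although 3 had an unadjusted p under 0.05 by edgeR, against 23.8% of all tested genes. With 1 library left out, Csnk1d and Gsk3b were called in 4 of 10 fits, Sirt1 and Hdac3 in 3 and Fbxl21 in 1. Fbxl21 was named after its values were seen. Of 8 genes rhythmic in many mouse tissues, among them Wee1, Nampt and Por, 0 were called by edgeR and by limma-voom. Over all tested genes these called 20.5% and 21.5%. Of the 8, 2 had an unadjusted p under 0.05 by edgeR, against 39.8% of all tested genes, and DESeq2 called 1, against 27.7%.

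Signals known to set Per1 were read the same way. Of 13 glucocorticoid response genes 2 fell and 0 rose, Zbtb16, at 25.96 ± 1.67 CPM in Visudyne mice and 32.5 ± 3.85 CPM in vehicle mice, and Fkbp5, at 18.1 ± 1.49 CPM with Visudyne, against 20.9 ± 0.855 CPM with vehicle (SD, n = 5 each). Over all tested genes 11.5% were lower. The median of that list was -0.21, and neither gene was called with the GC trend removed. With 1 library left out, Zbtb16 was called in 5 and Fkbp5 in 1 of 10 fits. Of 12 tested activity-regulated early genes 0 were called by edgeR, DESeq2 or limma-voom, with 1 at an unadjusted p under 0.05, against 39.8% of all tested genes. Their median log2 fold change was 0.14, and 0.39 with the GC trend removed, where 0 of the 12 were called by edgeR and 5 had an unadjusted p under 0.05, against 23.8% of all tested genes. Of 9 temperature-responsive genes 2 were called, against 20.5% of all tested genes. Hspa1b rose, at 7.78 ± 2.93 CPM in Visudyne mice, against 4.31 ± 0.922 CPM in vehicle mice, and Hspa8 fell, at 1407 ± 120.5 CPM with Visudyne, against 1650 ± 108.1 CPM with vehicle. Hspa1b was at 12.9 CPM in Visudyne 5, against 6.03 to 7.39 CPM in the other Visudyne libraries, and shares nearly all its sequence with Hspa1a, so the split of reads between them is uncertain. With 1 library left out, Hspa1b was called in 5 and Hspa8 in 2 of 10 fits. With the GC trend removed Hspa8 lost its call (adjusted p = 0.110 by edgeR), Hspa1b kept it (log2 fold 1.25, adjusted p = 0.0249 by edgeR) and Hspa1a was called as higher (log2 fold 0.93, adjusted p = 0.0419 by edgeR).

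Among the genes most like Dbp across the 10 libraries were Hcfc1, Cables2, Rcl1 and Pdgfrb, with Pearson r from 0.95 to 0.96 on log2 CPM, out of 11673 compared. The GC content of these 4 was 52.6% to 55.9%. With the GC trend removed they were Tulp3, Plekhm3, Sgsm2, Pdgfrb and Rcl1, at r from 0.83 to 0.91. For Arntl they were Kcnip1, Pdcd6, Chmp3, Pramef8 and Cat at r from 0.86 to 0.90, and with the GC trend removed Bcor, Acbd3, Snx4, Dbi and Slc29a4 at r from 0.92 to 0.96. They were picked as the highest of all genes compared, so their r is a description.

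Marker levels show what tissue the members were read in. All 8 hippocampal neuron markers were present in every library, at a summed 2082 to 2534 CPM in Visudyne and 1905 to 2298 CPM in vehicle. The 8 choroid plexus markers summed to 425.9 CPM in Visudyne 3 and 305.9 CPM in Visudyne 5, against 23.1 to 30.4 CPM in the other Visudyne libraries and 22.9 to 34.4 CPM in vehicle, with Aqp1 and Slc4a5 at 0 in some libraries. Of the neuron markers 3 of 8 (Wfs1, Bok and Slc17a7) were called lower and 0 higher, where 11.5% of all tested genes were lower. Of the oligodendrocyte markers 4 of 7 tested were called lower and 0 higher, and all 8 summed to 2329 to 2735 CPM in Visudyne and 2434 to 3312 CPM in vehicle, with Mag at 0 in some libraries. Microglia markers summed to 191.2 to 228.7 CPM in Visudyne and 168.3 to 195.1 CPM in vehicle, with 1 of 7 called higher and 1 lower. The parts of these cell types in the members' values were not tested. In whole tissue, fewer cells of a type and less RNA per cell cannot be told apart. The share of counts on mt-Rnr2, the mitochondrial ribosomal RNA, was 33.6% to 39.7% in Visudyne and 32.2% to 35.7% in vehicle.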

How the data were processed

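Total hippocampal RNA of 10 libraries was prepared with a stranded kit, per the labels' protocols. The submitters' processing notes name FastQC, Salmon and the build mm10. The authors deposited whole numbers per gene for all libraries, taken here as estimated counts already rounded, and used as they stand. The sources used here do not give the annotation or the summing to genes. Totals were 34548474 to 36956138 in Visudyne and 24752362 to 41073906 in vehicle. Counting error alone underlies any statement on depth.

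Symbols, positions, union exon lengths and GC content (over all transcripts of a gene) came from GENCODE M21 (GRCm38, the assembly also named mm10), which held 27053 of 27343 identifiers. Groups were compared in R 4.3.3 with edgeR 4.0.16 (quasi-likelihood test, filterByExpr, TMM, no covariate, two-sided, adjusted p under 0.05 over 15938 genes), tested first on simulated counts. SE is the log2 fold change over the square root of F. The GC trend is a loess per library (span 0.3) removed through offsets. Alternatives used limma 3.58.1, DESeq2 1.42.0 and sva 3.50.0. Log2 CPM has a prior count of 2, and the ratios to Arntl have none unless the GC trend is removed. Relations used 100000 permutations, or every pairing with 8 libraries. Promoters came from RefSeq, 13 windows for the members, each cut from the front of a longer sequence. For 11 of them the last 15 bases of that longer sequence were found in a GENCODE transcript of the gene.

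The members and gene lists were chosen with earlier results of these data known. Named genes were the 10 members, the called genes of each list (at most 4 a list, by p), and the 5 genes most like Dbp and Arntl among those of at least 1 CPM. Of these, 1 is not reported here. Replicate numbers run 1 to 5 and 6 to 10, so nothing pairs the mice. Within-group pairs of libraries gave a chi-square of 12.3 or more per degree of freedom. The labels list separate samples, and p-values measure the spread between them.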

Additional observations from a re-analysis of the deposited data

Results flagged for a closer look

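In 1 of the 38 groups of 5 values checked for a library far from the others, the log2 ratio of Nr1d1 to Arntl, vehicle 9 stood apart, at -1.63, against -2.76 to -2.48 in the other 4 vehicle libraries. Its gap to the nearest library was 0.748 of the range, past the 0.71 that marks a distant value among 5. Chance marks about 1 in 20 such groups. Vehicle 9 had the highest Nr1d1, at 6.69 CPM, the lowest Arntl of the vehicle libraries, at 20.7 CPM, and the highest GC slope, at 0.405. Their part in the ratio was not tested.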

How the results depend on the processing

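Every call of a clock member, under TMM and all 32 alternative fits, was in the lower direction, and their number ran from 0 to 7. It was 7 with total counts, 6 with DESeq2, 4 with a mean of at least 1 CPM, 1 with the GC trend removed (Clock) and with the GC and length trends removed (Clock), and 0 without a filter on low counts, with the slope covariate and with 1 surrogate variable. Leaving out each library gave 0 to 3, and 0 to 1 with the GC trend removed. The calls over all genes, 3261, were 2075 without a filter, 501 and 662 with the GC trend and the GC and length trends removed, 0 with the GC slope, 1 with 1 surrogate variable, 10 to 5047 with 1 library left out, and 4 to 1469 with the GC trend also removed. Of the related lists, 12 genes were called, 7 without a filter, 3 with the GC trend and with both trends removed, 0 with the GC slope and with 1 surrogate variable, 0 to 23 with 1 library left out, and 0 to 10 with the GC trend also removed. The cause of these losses was not tested. With total counts the median log2 fold over all genes was -0.19, against 0.010 with TMM, and 4.78% of the calls were higher, against 43.9%. Cry1 and Nr1d2 were then at -0.20 and -0.13. Signs also turned for Per2 (0.097 with the GC trend and 0.098 with both trends removed), Nr1d2 (-0.11 and -0.12 in those fits, -0.13 with the GC slope, -0.074 with 1 surrogate variable), Cry1 (-0.088 with the GC slope, -0.077 with 1 surrogate variable), and Per1, Cry2 and Nr1d1 with the GC slope (0.30, 0.026 and 0.13). With 1 library left out, with and without the GC trend removed, Cry1 ranged from -0.057 to 0.13, Per2 from -0.25 to 0.17 and Nr1d2 from -0.15 to 0.12. Of 9 relations to Arntl 0 passed, and 1 with the GC trend removed. Signs turned for Per3 (r = -0.085 with the GC trend removed, -0.74 with group means removed, -0.33 with both), Per1 (-0.20 and -0.079), Nr1d1 (-0.34 and -0.31) and Dbp (-0.49 and -0.41) with group means removed, without and with the GC trend removed, and Cry1 (0.022 with both). With the GC trend removed and 2 libraries left out, r was 0.093 for Cry1 and -0.082 for Dbp. No paired analysis was possible because the groups share no replicate number. The GC settings with a library left out, or with length, and the relations of Arntl with 2 changes at once, were chosen after seeing the data.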
